A study of Mus musculus with 52 samples.

Results

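A set of 8 genes linked to the control of cell quiescence was followed through single mouse bone marrow cells: the transcription factors Foxo1, Foxo3 and Foxo4, and Txnip, Sesn1, Btg1, Btg2 and Mxd4, genes that restrain growth or division and of which several are known FOXO targets. They were chosen by symbol, as 8 of the 28786 genes in the deposited table. The study labelled 52 cells as primed HSCs (haematopoietic stem cells), taken from the marrow of C57BL/6 mice aged 6 to 8 weeks that carried the Cd4-cre;R26Tdtomato genotype, in which Cre under Cd4 control can turn on the red reporter tdTomato. Each cell was profiled by Smart-seq2, which copies full-length transcripts of 1 cell per library without molecular identifiers. There was 1 group and no control, no animal was named, and the sources used here give neither the sort gate nor what "primed" stands for. The cells therefore form 1 sample, and levels are described without p-values.

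FOXO proteins are forkhead transcription factors that growth factor signals through PI3K and AKT keep out of the nucleus. When that signal is low they enter the nucleus and turn on genes of cell cycle arrest, antioxidant defence and autophagy, and in the blood system they are known for keeping haematopoietic stem cells quiescent, with Foxo3 the best known member there. Txnip encodes an inhibitor of thioredoxin and of glucose uptake, Sesn1 a stress-induced inhibitor of the growth kinase complex mTORC1, and Btg1 and Btg2 antiproliferative proteins that recruit the deadenylase complex to messenger RNA. Mxd4 encodes a partner of MAX that opposes MYC. Against them stood 3 reference genes, namely Mki67, which marks dividing cells, Meis1, a transcription factor of stem cells and early progenitors, and Klf1, the erythroid master factor.

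The stretch upstream of a gene's start is where a FOXO protein or another factor may bind, so the promoter windows of the 8 genes were searched for short motifs. RefSeq windows on GRCm38.p6, running from 250 bases before to 50 bases after each annotated start, were found for 7 of the 8 genes (all but Foxo4). The forkhead element bound by FOXO proteins, GTAAACA on either strand (TGTTTAC when read on the opposite strand), was present in 3.65% of 32851 windows of the same length. It was found upstream of Txnip, upstream of Btg1, and just inside the first of the windows of Sesn1. The E-box CACGTG, the element that MYC, MAX and MXD proteins bind, was present in 7.15% of windows and was found upstream of Mxd4. The cAMP response element TGACGTCA was present in 1.79% of windows and was found upstream of Btg2. That last motif was searched because it was seen in the letters, so its presence is no independent observation. No match to any of the 3 motifs was found in the windows of Foxo1 and Foxo3 or in the other window of Sesn1. A match is a description of the letters and does not show binding. The sequences below are shown because each holds a motif, which is set in capitals; they read 5′ to 3′ on the gene's strand.
Txnip (chr3:96557707-96557956, plus strand; GTAAACA begins 121 bases upstream of the start): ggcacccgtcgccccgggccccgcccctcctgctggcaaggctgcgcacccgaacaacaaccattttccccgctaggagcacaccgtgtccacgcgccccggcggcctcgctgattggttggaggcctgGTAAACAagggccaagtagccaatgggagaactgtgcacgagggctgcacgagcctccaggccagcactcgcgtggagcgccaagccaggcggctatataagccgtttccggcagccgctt
Btg1 (chr10:96616751-96617000, plus strand; TGTTTAC begins 204 bases upstream): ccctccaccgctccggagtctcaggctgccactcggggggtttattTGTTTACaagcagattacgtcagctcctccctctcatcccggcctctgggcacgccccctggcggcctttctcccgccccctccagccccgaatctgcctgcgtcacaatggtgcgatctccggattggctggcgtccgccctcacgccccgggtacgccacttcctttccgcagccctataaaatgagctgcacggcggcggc
Sesn1 (chr10:41810584-41810613, plus strand; TGTTTAC begins 23 bases downstream): agaaccttctacTGTTTACcagccttttgg
Mxd4 (chr5:34187711-34187960, minus strand; CACGTG begins 219 bases upstream): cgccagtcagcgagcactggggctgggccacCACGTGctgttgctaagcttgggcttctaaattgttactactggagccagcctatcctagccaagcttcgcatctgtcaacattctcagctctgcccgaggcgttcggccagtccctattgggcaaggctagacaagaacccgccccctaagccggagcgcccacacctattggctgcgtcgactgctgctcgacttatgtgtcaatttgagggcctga
Btg2 (chr1:134079156-134079405, minus strand; TGACGTCA begins 166 bases upstream): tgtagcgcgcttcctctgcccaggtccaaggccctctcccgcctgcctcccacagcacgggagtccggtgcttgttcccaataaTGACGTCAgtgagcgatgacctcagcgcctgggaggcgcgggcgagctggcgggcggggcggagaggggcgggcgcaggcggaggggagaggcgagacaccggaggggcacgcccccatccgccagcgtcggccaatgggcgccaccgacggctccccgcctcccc

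On the same build, GENCODE places Foxo1 at chr3:52268336-52353221 (plus strand), Foxo3 at chr10:42181841-42276755 (minus strand) and Foxo4 at chrX:101254528-101260873 (plus strand). Txnip lies at chr3:96557957-96561883 (plus strand), Sesn1 at chr10:41809935-41908424 (plus strand) and Btg1 at chr10:96617006-96622809 (plus strand). Btg2 lies at chr1:134075170-134079120 (minus strand) and Mxd4 at chr5:34173883-34187720 (minus strand). Foxo3 and Sesn1 are near neighbours, with 273416 bases and 1 protein-coding gene, Armc2, between them. Foxo1, Txnip and Mxd4 each overlap an annotated antisense gene. Reads of either strand cannot be told apart at these 3 loci from the counts used here. The strand setting of the authors' counting is not stated, and the antisense genes are not among the genes in the deposited table.

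Values are reads scaled to a total of 1000000 per cell (CPM). A cell entered with 50000 reads or more, 1000 or more genes detected and a mitochondrial share of 20% or less. This kept 49 cells and set aside cells 5, 10 and 12. Depth in the 49 ran from 85519 to 12446477 reads (median 2187579). Cells were set on either side of a cut that uses no gene of the 8. In 11 cells Meis1 CPM was above Klf1 CPM, and these are called Meis1-over-Klf1 cells; the other 38 cells are called the other cells. The sides are ranges on 2 genes and not cell types; cell 34 is among the other cells with 0 CPM of Meis1 and 1.66 CPM of Klf1, and cells 3, 15 and 47 lay within 2-fold of the cut. Meis1-over-Klf1 cells were shallower, with a median of 780369 reads and 5572 genes against 2722363.5 reads and 7408.5 genes. Of all genes that passed a filter on low values (given below), 21.4% were at least 2-fold higher in Meis1-over-Klf1 cells and 23% at least 2-fold lower. The HSC marker list without Meis1, which made the cut, had 5 of 6 tested genes at least 2-fold higher, and its summed level ran from 1114 to 3099 CPM there and from 6.63 to 2148 CPM in the other cells. The erythroid list without Klf1 had 7 of 8 tested genes at least 2-fold lower, with sums of 417 to 8749 CPM against 232 to 18910 CPM. All 5 tested megakaryocyte genes were at least 2-fold higher, with sums of 50.3 to 3004 CPM against 0 to 1099 CPM. Of these, Vwf was at 47.5 ± 147 against 11.4 ± 30.3 CPM (SD over cells), with a Spearman correlation of -0.03 with Meis1 over 49 cells. Pf4 and Selp passed the filter through the Meis1-over-Klf1 cells alone, as did Hlf and Mecom of the HSC list. Tspo2 of the erythroid list passed it through the other cells alone. No read fell on 6 of 7 T lineage genes, Cd4 and Cd3e among them. Sums of the B lineage list peaked in cell 9 (7811 CPM) and of the neutrophil and monocyte list in cell 34 (40605 CPM), both among the other cells. Of the mast cell and basophil list no gene passed the filter on low values (sums of 0 to 462 CPM and 0 to 57.1 CPM), and of the stroma and endothelium list 1 gene passed (123 to 642 CPM and 2.41 to 2269 CPM). The part of depth and of these other programmes in the results below was not tested.

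Levels differed widely between the 8 genes and between cells. Divided by exon length, mean levels were 108 CPM per kb for Txnip, 63.1 for Btg2, 21.5 for Btg1, 14.6 for Sesn1, 11.5 for Foxo3, 5.43 for Mxd4, 0.730 for Foxo1 and 0.349 for Foxo4. The SD over cells (n = 49) was as large as or larger than the mean for each gene, from 111 CPM per kb for Txnip to 1.21 for Foxo4, so no neighbours in this order differed beyond their spread. By the median cell the order changed, with Txnip at 59.5 CPM per kb, Btg1 at 8.35, Foxo3 at 6.62, Btg2 at 4.42, Sesn1 at 4.12, Mxd4 at 1.46, Foxo1 at 0.0289 and Foxo4 at 0. Btg2 thus stood next to the top by its mean and behind Btg1 and Foxo3 by its median, since few cells held most of its reads. For scale, Klf1 had a mean of 413 CPM per kb, Mki67 of 27.5 and Meis1 of 15.5.

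**Figure D1:**
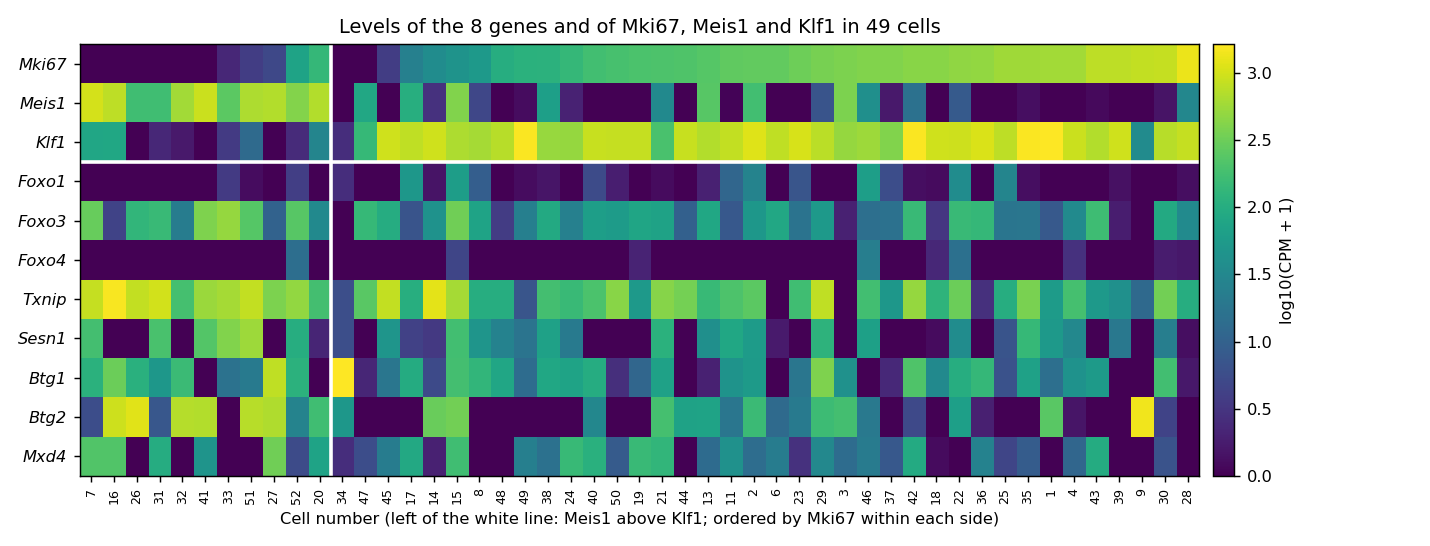
Level of Mki67, Meis1, Klf1 and the 8 genes (rows) in each of 49 cells (columns, by cell number) as log10(CPM + 1). The 11 cells left of the white line have Meis1 above Klf1, and cells are ordered by Mki67 within each side. Txnip and Foxo3 have a read in 47 of 49 cells, whereas Foxo1 and Foxo4 are dark in most.

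Of the FOXO factors, Foxo3 was the one found across the sample. It had a read in 47 of 49 cells (95.9%, exact 95% interval 86.0 to 99.5) and reached 100 CPM in 13. Its level ran from 0 (in 2 cells) through a median of 50.1 CPM to 515 CPM in cell 33, with a mean of 86.8 ± 110 CPM (SD, n = 49 cells). In the 11 Meis1-over-Klf1 cells it ran from 3.42 through a median of 150 to 515 CPM. In the 38 other cells it ran from 0 through a median of 38.6 to 326 CPM. The ranges overlapped, and 4 of the Meis1-over-Klf1 cells (16, 20, 27 and 32) held 32.6 CPM or less. Means were 184 ± 170 CPM against 58.6 ± 65.9 CPM, a log2 ratio of 1.65 (3.15-fold).

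Foxo1, which has its best known roles in lymphocytes and metabolic tissues, was read in 26 of 49 cells (53.1%, interval 38.3 to 67.5), but reached 10 CPM in 7 and 100 CPM in none. These 7 were all among the other cells, and the highest was cell 46 at 63.1 CPM, followed by cell 15 at 60.5 CPM. Meis1-over-Klf1 cells held 5 Foxo1 reads in all (mean 0.529 ± 1.11 CPM, highest 2.97 CPM), against 910 reads in the other cells (mean 8.00 ± 17.02 CPM). With so few reads no fold is given, and the shallower depth of the Meis1-over-Klf1 cells limits what can be seen. Foxo4 was read in 9 cells (18.4%, interval 8.76 to 32.02), with 60 reads in all and a highest level of 22.8 CPM in cell 46. Its mean was 1.22 CPM on both sides of the cut (SD 4.03 and 4.30). Intervals cover counting error only, as reads copied by PCR are not independent molecules.

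Txnip, the inhibitor of thioredoxin, was the most abundant of the 8 genes per length and was present at 100 CPM or more in 37 cells. It was read in 47 of 49 cells, with 0 reads in cells 3 and 6, a median of 186 CPM and a highest level of 1535 CPM in cell 16. All 11 Meis1-over-Klf1 cells held at least 178 CPM, with a median of 611 CPM. Among the other cells the level ran from 0 through a median of 159 to 1203 CPM (cell 14), so the ranges overlapped from the lowest Meis1-over-Klf1 cell upward. Means were 677 ± 394 CPM against 237 ± 264 CPM, a log2 ratio of 1.51 (2.85-fold).

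Sesn1, the mTORC1 inhibitor, was read in 33 of 49 cells (67.3%, interval 52.5 to 80.1), with a median of 16.4 CPM and a highest level of 555 CPM in cell 51. Meis1-over-Klf1 cells split into 6 cells at 101 CPM or more (7, 31, 33, 41, 51 and 52) and 5 cells at 0 to 1.14 CPM (16, 20, 26, 27 and 32), with none between. Among the other cells it ran from 0 through a median of 11.2 to 172 CPM, and 4 reached 100 CPM. Means were 151 ± 188 CPM against 31.3 ± 43.8 CPM, a log2 ratio of 2.27 (4.83-fold). Each of the 6 Meis1-over-Klf1 cells high in Sesn1 also held at least 100 CPM of Foxo3, which 7 of the 11 cells on that side held. The 1 further cell, 26, had no Sesn1 read. Of the 4 other cells that reached 100 CPM of Sesn1, 1 (cell 15) was that high in Foxo3, as were 6 of all 38. No background share of overlap was computed, so nothing is read from these overlaps.

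Btg1, an antiproliferative gene known for high levels in resting lymphocytes, was read in 42 cells (85.7%, interval 72.8 to 94.1), with a median of 44.03 CPM. Its highest level, 1622 CPM, was in cell 34, the cell with the highest neutrophil and monocyte sum, and the next was 812 CPM in cell 27. Medians were 109 CPM in Meis1-over-Klf1 cells (range 0 to 812 CPM) and 41.8 CPM in the other cells (range 0 to 1622 CPM), so the ranges overlapped fully. Means were 155 ± 236 CPM against 102 ± 265 CPM, a log2 ratio of 0.61 that is under the 2-fold mark. Without cell 34 the log2 ratio was 1.35, and in the 36 cells with at least 1000000 reads it was -0.58, so the direction for Btg1 rests on which cells are counted.

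Btg2, its p53-induced relative, was read in 31 cells (63.3%, interval 48.3 to 76.6). Its level ran from 0 through a median of 12.1 to 1392 CPM in cell 9, the cell with the highest B lineage sum and, at 85519 reads, the shallowest kept. The next was 1168 CPM in cell 26. Meis1-over-Klf1 cells ran from 0 (cell 33) through a median of 684 to 1168 CPM, and 7 of the 11 held 168 CPM or more. In the other cells the median was 2.19 CPM, 17 had no read, and 8 reached 100 CPM. Means were 469 ± 434 CPM against 87.5 ± 235 CPM, a log2 ratio of 2.42 (5.36-fold), or 3.17 without cell 9.

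Mxd4, the MYC antagonist, was read in 37 cells (75.5%, interval 61.1 to 86.7), with a median of 12.3 CPM and a highest level of 335 CPM in cell 27. Meis1-over-Klf1 cells ran from 0 (4 cells) through a median of 45.1 to 335 CPM, and 3 of them, cells 7, 16 and 27, held 217 CPM or more. The other cells ran from 0 through a median of 11.4 to 168 CPM (cell 15). Means were 90.1 ± 116 CPM against 33.3 ± 49.3 CPM, a log2 ratio of 1.44 (2.71-fold). The ratio was 0.98 without cell 27 and 0.29 in cells with at least 1000000 reads, both under the 2-fold mark.

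**Figure D2:**
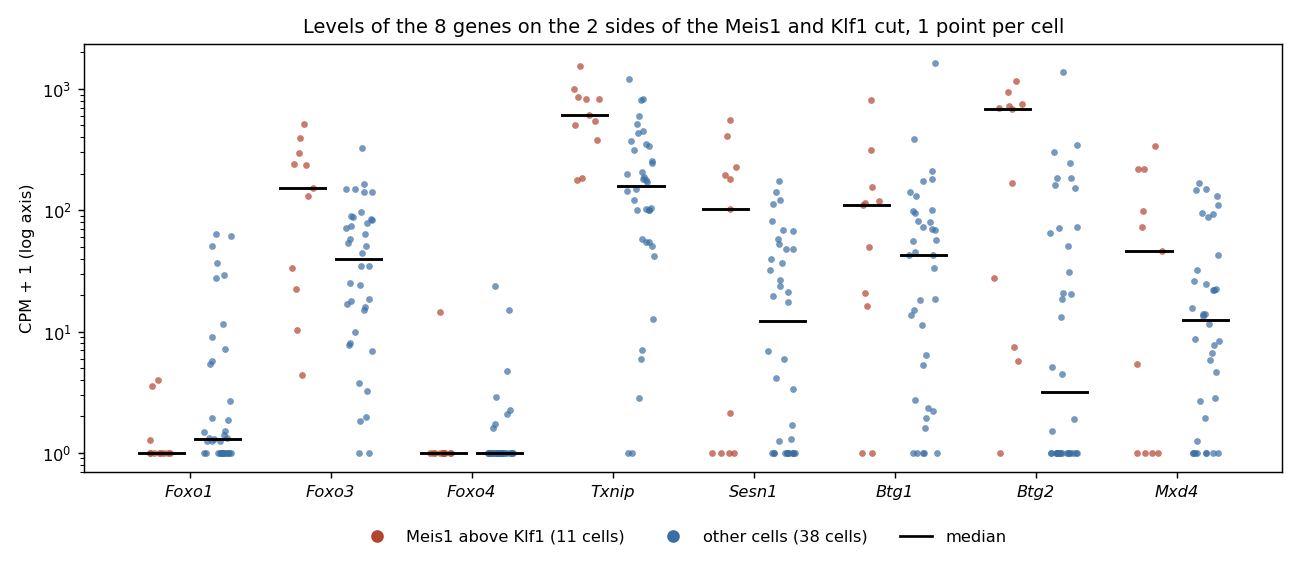
CPM + 1 of each of the 8 genes (log axis), 1 point per cell, for 11 Meis1-over-Klf1 cells and 38 other cells; black bars are medians. Ranges overlap for every gene, and the 11 Meis1-over-Klf1 cells all hold at least 178 CPM of Txnip.

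Set against all genes, the direction was shared by most of the set. At least 2-fold higher means in Meis1-over-Klf1 cells were seen for 5 of the 8 genes (Foxo3, Txnip, Sesn1, Btg2 and Mxd4), where 21.4% of 9155 genes passed the same mark. Those 9155 had a mean of 5 CPM or more and were read in 10 or more cells. At least 2-fold lower was 1 gene, Foxo1, against 23% of all genes; it passed the filter through the other cells alone and rests on 5 reads on the Meis1 side, so nothing is read from that count. Of the 8, only Foxo4 did not pass this filter on low values. The median log2 ratio was 1.51 over the 7 genes that passed and -0.00085 over all genes. Geometric means of CPM + 1, which give less weight to single high cells, left 4 genes at 2-fold or more, against 10.9% of all genes; Mxd4 was then at 0.70. Foxo3, Txnip, Sesn1 and Btg2 kept a log2 ratio of at least 1 in each alternative that was run.

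The number of the 8 genes at a high level in 1 cell was then counted. Meis1-over-Klf1 cells held a median of 4 of the 8 genes at 100 CPM or more (range 2 to 5), and 10 of 11 cells held at least 3. The other cells held a median of 1 (range 0 to 6), 4 of 38 held at least 3, and 5 held none. Over the 9155 genes, the median cell held 26.6% at 100 CPM or more on the Meis1 side and 27.3% among the other cells. Of the values of the 8 genes, 45.5% and 18.4% were at 100 CPM or more. Cell 15, one of the 3 cells near the cut, held the most, with 6 of 8. It had 326 CPM of Foxo3, 601 of Txnip, 172 of Sesn1, 180 of Btg1, 341.9 of Btg2 and 168 of Mxd4, and its Meis1 and Klf1 levels were 408 and 669.5 CPM.

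Cells on the Klf1 side that still held Meis1 were looked at apart, in a division added after the values were seen. Of the 38 other cells, 11 held at least 10 CPM of Meis1 and 27 held less. Foxo3 had a mean of 184 CPM in Meis1-over-Klf1 cells, 87.7 CPM in those 11 and 46.7 CPM in the 27. Sesn1 followed the same order with 151, 47.2 and 24.8 CPM, and so did Mxd4 with 90.1, 50.4 and 26.3 CPM. The means of Txnip and Btg2 were about level in the latter ranges, with 250 and 232 CPM for Txnip and 86.9 and 87.7 CPM for Btg2. The last of these includes cell 9 at 1392 CPM, and the Btg2 medians were 19.3 and 0.518 CPM. Medians of Txnip were 181 and 122 CPM. Btg1 did not follow the order, with 155, 66.8 and 116 CPM, the last of which includes cell 34. Foxo1 went otherwise, with 0.529, 18.4 and 3.77 CPM, and its median in the 11 was 0.506 CPM. For Foxo3, Sesn1 and Mxd4 each step was smaller than the larger SD of the ranges it joins. Cell 15, near the cut, was the highest of the 11 in each of these genes (326, 172 and 168 CPM). Medians kept the order, with 150, 70.9 and 24.2 CPM for Foxo3 and 101, 38.9 and 5.93 CPM for Sesn1. Those of Mxd4 were 45.1, 14.7 and 6.73 CPM.

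Mki67 divided the cells in a like way, since 9 of the 12 cells under 10 CPM of Mki67 were Meis1-over-Klf1 cells, so these contrasts are not independent of each other. In the 12 cells under 10 CPM of Mki67, set against the 37 cells at 10 CPM or more, mean Txnip was 654 against 233 CPM, Btg2 418 against 93.8 CPM and Btg1 269 against 63.3 CPM. Foxo3 was at 166 against 61.1 CPM, Sesn1 at 134 against 33.5 CPM and Mxd4 at 78.6 against 35.5 CPM. These 6 of 8 genes were at least 2-fold higher, where 20.3% of all genes were. The count was 5 without each gene's highest cell (Mxd4 at a log2 ratio of 0.64 without cell 27), and Btg1 was at 1.203 without cell 34. It was also 5 without the cells whose title code does not start with Y (Mxd4 at 0.69), and 4 in cells with at least 1000000 reads. Foxo1 was at 0.375 against 8.26 CPM, where 24% of all genes were at least 2-fold lower. It held 4 reads in the 12 cells and passed the filter through the 37 cells alone, so nothing is read from its direction. Foxo4 had 0 reads in the 12 cells against a mean of 1.61 CPM. The 12 cells were also shallower, with a median of 807892 reads against 2556759. In cells with at least 1000000 reads the log2 ratio turned for Btg1 (-0.46, from 2.09) and Mxd4 (-0.16, from 1.15). The 3 cells low in Mki67 among the other cells (34, 45 and 47, of which 34 is also under 10 CPM of Klf1) held means of 360 CPM of Txnip and 79.1 CPM of Foxo3, too few to compare.

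Over the 49 cells, levels were then ranked against the reference genes. Spearman correlations are descriptions without p-values: all cells share depth, chemistry and the 2 sides, and Mki67 itself went with Meis1 at -0.53, with Klf1 at 0.58 and with total reads at 0.35. Txnip had the lowest correlation of the set with Mki67, at -0.50. The values for the rest were -0.28 for Foxo3, -0.25 for Btg1, -0.23 for Btg2, -0.20 for Mxd4, -0.17 for Sesn1, 0.09 for Foxo1 and 0.30 for the sparse Foxo4. At -0.3 or lower was 1 of the 7 genes that passed the filter, against 5.13% of all genes, and at 0.3 or higher none of the 7, against 14.1%. The median was -0.23 over the 7 and 0.09 over all genes.

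With Meis1, the correlation was 0.50 for Txnip, 0.43 for Btg2, 0.38 for Foxo3, 0.31 for Sesn1, 0.27 for Mxd4, 0.24 for Btg1, 0.00033 for Foxo1 and -0.01 for Foxo4. At 0.3 or higher were 4 of 7 genes against 6.55% of all genes, and at -0.3 or lower 0 of 7 against 11.8%. With Klf1, the correlation of Btg2 was -0.36 and that of Txnip -0.23, and the rest lay between -0.19 (Foxo3) and 0.22 (Foxo1). At -0.3 or lower was 1 of 7 genes against 4.17% of all genes, and at 0.3 or higher 0 of 7 against 26.3%. Total reads went with Btg2 at -0.30 and with the other 7 between -0.11 and 0.18.

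**Figure D3:**
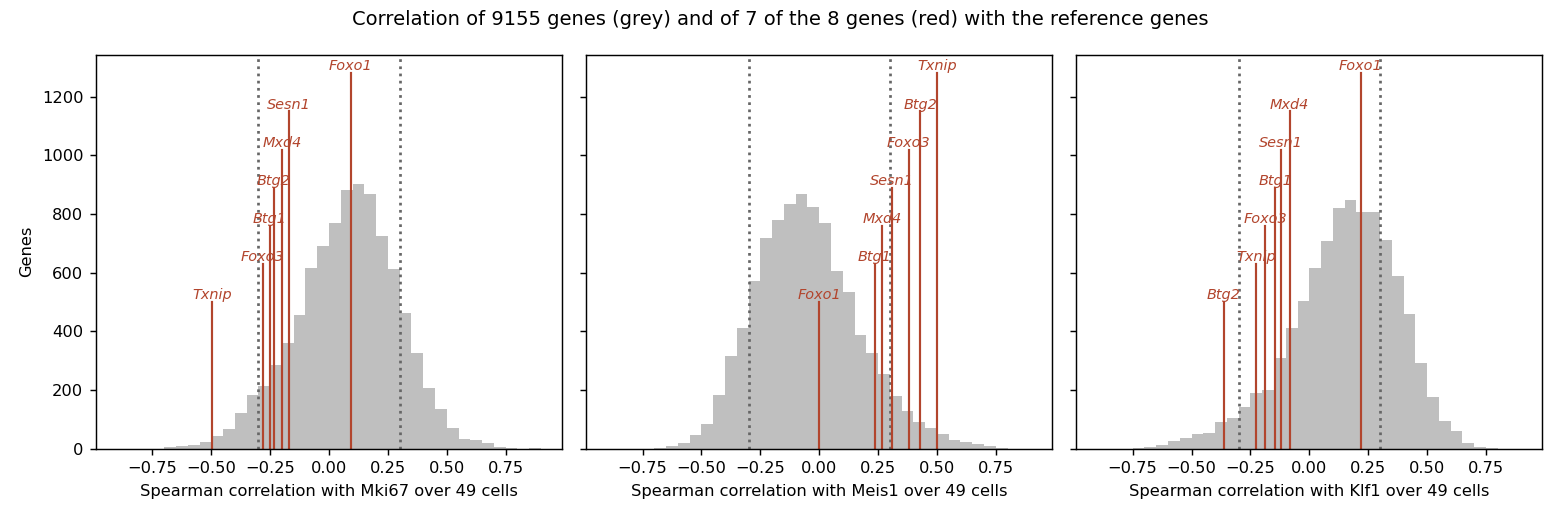
Spearman correlation over 49 cells with Mki67 (left), Meis1 (middle) and Klf1 (right): grey bars count 9155 genes, red lines mark the 7 of the 8 genes that passed the filter on low values (line height carries no meaning), and dotted lines are at -0.3 and 0.3. Txnip lies at -0.50 with Mki67, and Txnip, Btg2, Foxo3 and Sesn1 lie above 0.3 with Meis1.

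The correlations were read again within the 38 other cells. With Mki67, 5 of 7 kept their sign and Foxo1 and Btg2 did not. Values ran from -0.26 (Mxd4) to 0.05 (Btg2) over the 7 genes, with Txnip at -0.23 and Foxo3 at -0.12. The median was -0.19, against -0.00825 over all genes. None was at -0.3 or lower (4.64% of all genes) or at 0.3 or higher (4.03%). With Meis1 in those cells, Foxo1 (0.35), Sesn1 (0.34) and Foxo3 (0.30) were at 0.3 or higher, 3 of 7 against 7.13% of all genes, and 0 of 7 were at -0.3 or lower (2.06%). All 7 kept their sign with Meis1, 4 of them nearer to 0 than over 49 cells, and Foxo1, Sesn1 and Mxd4 farther from it. The median with Meis1 was 0.28 over the 7 and 0.0405 over all genes. With Klf1 in those cells, Txnip was at 0.20 and Foxo3 at 0.06, both of the opposite sign to the value over 49 cells, and 0 of 7 were at either mark (1.64% low and 12.5% high).

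Within the 11 Meis1-over-Klf1 cells, ranks rest on few cells and marks are passed by many genes. Txnip went with Mki67 at -0.62, the 1 gene of 7 at -0.3 or lower (13.6% of all genes). Foxo1, read in 3 of these cells, went with Mki67 at 0.51 (21.8% at 0.3 or higher). Mki67 itself had no read in 6 of the 11 cells and reached 10 CPM in 2. Ranks against it here rest on ties at 0 and on few reads. With Meis1, Mxd4 was at 0.56 (17.1% of all genes at 0.3 or higher) and Foxo1 at -0.34 (19.5% at -0.3 or lower). With Klf1, Txnip was at 0.33 (22.7% at 0.3 or higher) and none was at -0.3 or lower (14.5%).

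Whether the 8 genes varied together was asked over their 28 pairs. Their correlation was weak on the whole, with a mean Spearman of 0.116 and a median of 0.0970 over 49 cells, against a median of 0.0626 over all pairs of the 9155 genes. At 0.3 or higher were 4 pairs (14.3%), against 7.41% of all gene pairs, and none was at -0.3 or lower (1.75%). Of these pairs 3 link Foxo3, Txnip and Sesn1: Foxo3 with Txnip at 0.49, Txnip with Sesn1 at 0.38 and Foxo3 with Sesn1 at 0.37. The other is Txnip with Btg2 at 0.33. Foxo1 and Foxo3 went together at -0.03, and Btg1 and Btg2 at 0.15, and neither pair of relatives was among the 4.

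**Figure D4:**
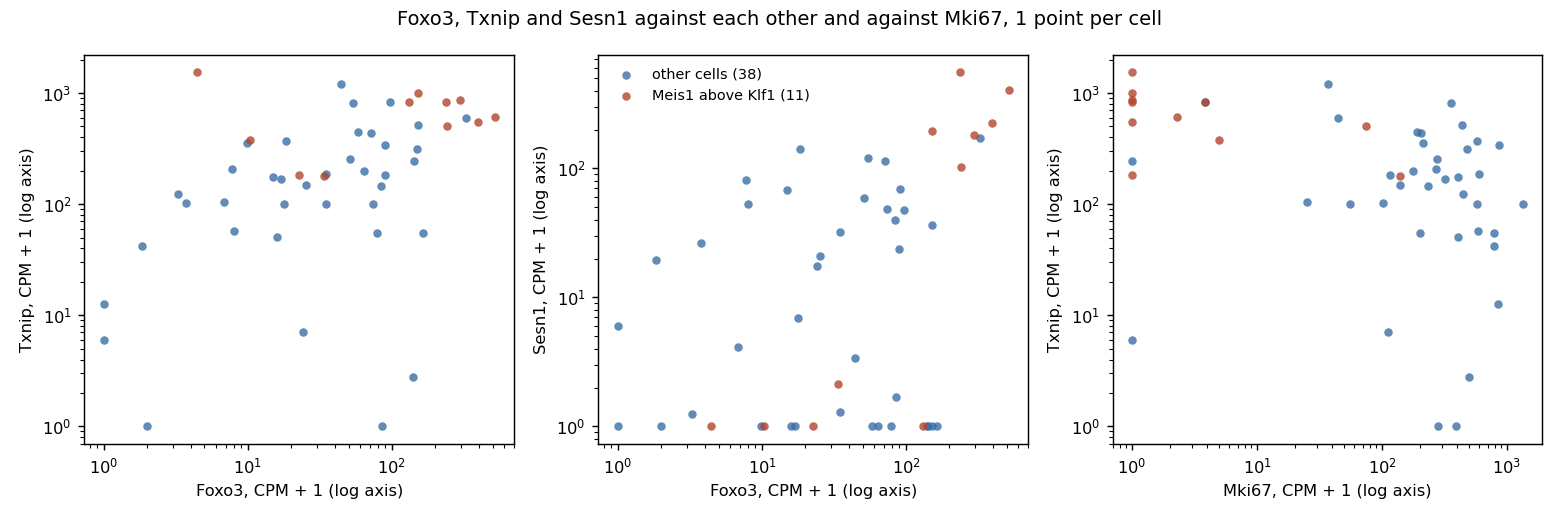
Foxo3 against Txnip (left), Foxo3 against Sesn1 (middle) and Mki67 against Txnip (right), as CPM + 1 on log axes, 1 point per cell, red for the 11 Meis1-over-Klf1 cells and blue for the 38 other cells. Over all 49 cells the Spearman correlations are 0.49, 0.37 and -0.50. In the middle panel the red cells with Sesn1 above 100 CPM all lie above 100 CPM of Foxo3, as does 1 of the 4 such blue cells. That Foxo3 level is reached by 7 of the 11 red cells, and no background share of overlap was computed.

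These links differed with the side on which they were read. In the 38 other cells the mean over the 28 pairs was 0.156, with 5 pairs at 0.3 or higher (17.9%, against 8.4% of all gene pairs). Foxo3 with Mxd4 led at 0.44, followed by Foxo3 with Txnip at 0.39, Txnip with Sesn1 at 0.38, Btg1 with Mxd4 at 0.35 and Foxo3 with Btg1 at 0.30. In the 11 Meis1-over-Klf1 cells the mean was -0.0207 and the pairs spread from -0.69 to 0.81, with 5 at 0.3 or higher and 7 at -0.3 or lower. In so few cells 20.1% and 17% of all gene pairs pass those marks.

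Among the Meis1-over-Klf1 cells, Foxo3 and Sesn1 went together at 0.81, the highest of the 28 pairs there, and at 0.07 in the other cells. Btg1 went with Sesn1 at -0.69 and with Foxo3 at -0.62, and Btg2 with Foxo3 at -0.57. Of the 6 cells high in Sesn1 and the 6 high in Btg1 (100 CPM or more), 2 were the same (7 and 52). Of the 7 high in Foxo3 and the 6 high in Btg1, 3 were the same (7, 26 and 52). Of the 7 cells high in Btg2 and the 7 high in Foxo3, 3 were the same (26, 41 and 51). Each list holds 6 or 7 of 11 cells and no background share of overlap was computed, so nothing is read from these counts. In cell 33 Foxo3 reached 515 CPM and Sesn1 405 CPM with 15.4 CPM of Btg1 and no read of Btg2. In cell 27 Btg1 reached 812 CPM, Btg2 684 CPM and Mxd4 335 CPM with 9.30 CPM of Foxo3 and no read of Sesn1. Cells that went the other way were present too. Cell 7 held 297 CPM of Foxo3, 181 of Sesn1, 113 of Btg1 and 219 of Mxd4. Cells 41 and 51 were high in Foxo3, Sesn1 and Btg2 alike. Whether the Foxo3 and Sesn1 correlation differed between the sides was not tested, as cells are not replicates.

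**Figure D5:**
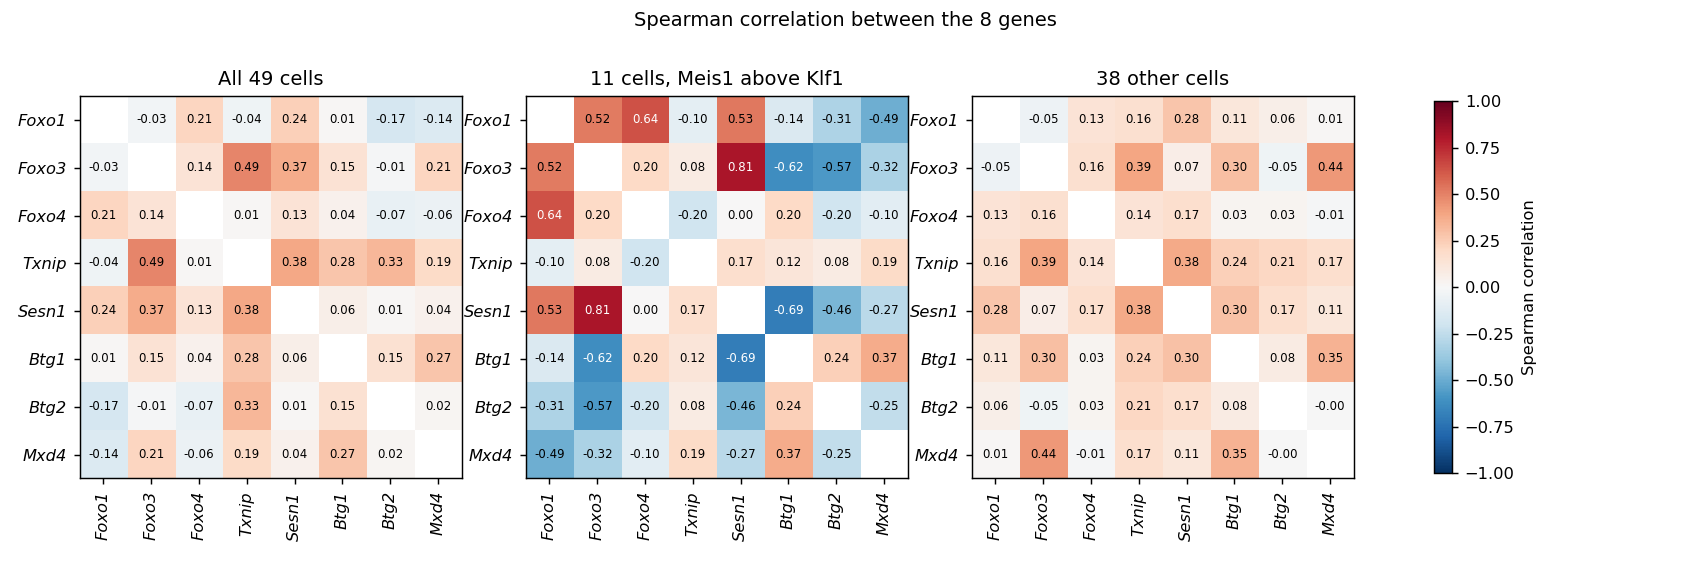
Spearman correlation of each pair of the 8 genes over all 49 cells (left), the 11 Meis1-over-Klf1 cells (middle) and the 38 other cells (right); red is positive, blue negative, and the value is printed in each field. Foxo3, Txnip and Sesn1 form the reddest corner on the left, and the middle panel holds both the highest value (0.81) and the lowest (-0.69).

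The genes whose levels were most like each of the 8 were named among 6782 genes with a mean of 10 CPM or more that were read in 25 or more of the 49 cells. For Foxo3 these were Arhgef2 (Spearman 0.58), Aldh2 (0.57) and Mapk14 (0.56), and the lowest was Uqcr10 (-0.52). For Txnip they were the gene ENSMUSG00000095041 (0.62), Rab37 (0.60) and Zyx (0.60), and the lowest was H2afz (-0.72), which encodes a histone variant. H2afz was at -0.59 with Txnip within the other cells and at -0.16 within the Meis1-over-Klf1 cells. For Btg2 they were Stat3 (0.58), Tmsb4x (0.57) and Zfp36 (0.55), the last an immediate early gene whose protein promotes messenger RNA decay, with Dap3 lowest (-0.65). For Btg1 they were Zfp991 (0.56), Slc35b4 (0.49) and the immediate early gene Fos (0.47), with Otud4 lowest (-0.50).

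For Sesn1 the most alike were Ctu2 (0.60) and Nop53 (0.58), with Dnajc9 lowest (-0.46). For Mxd4 they were Snx10 (0.52), Mbd3 (0.51) and Pyurf (0.50), with Ipo9 lowest (-0.44). For Foxo1 they were Golga2 (0.62), Tbc1d5 (0.55) and Trex1 (0.53), with Tpd52 lowest (-0.40). The ranks of Foxo1 moved with depth: with each cell thinned to 85519 reads, Golga2 stood at 0.48 and Trex1 at 0.31. For Foxo4, read in 9 cells, they were Zdhhc13 (0.55), Qtrt1 (0.51) and Acp6 (0.49), with Gna11 lowest (-0.49, or -0.15 after thinning). The highest and lowest of 6782 values lie far from 0 by being picked, so they carry no weight of their own.

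Genes that act on FOXO proteins were mixed between the sides. Of 20 genes of the PI3K and AKT pathway and other regulators, 18 passed the filter on low values, with a median log2 ratio of 0.82. In Meis1-over-Klf1 cells 6 were at least 2-fold higher (21.4% of all genes) and 2 at least 2-fold lower (23% of all genes). Akt1, a kinase that sends FOXO proteins out of the nucleus, was at 151 ± 214 CPM against 51.8 ± 83.3 CPM. Akt2, by contrast, was level at 164 ± 250 against 160 ± 155 CPM. Mdm2, a ubiquitin ligase of p53 and of FOXO proteins, was at 174 ± 228 against 49.3 ± 63.1 CPM. Skp2, a ligase subunit that drives FOXO1 and p27 degradation, was at 0.213 ± 0.460 against 18.5 ± 31.05 CPM. It passed the filter through the other cells alone. The PI3K subunit Pik3cd was at 39.3 ± 57.1 against 106 ± 152 CPM. Ywhaz, a 14-3-3 protein of the kind that holds phosphorylated FOXO in the cytoplasm, was at 744 ± 229 against 425 ± 175 CPM.

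Of 26 genes known as FOXO targets, 21 passed the filter, with a median log2 ratio of 0.94. In Meis1-over-Klf1 cells 10 were at least 2-fold higher (21.4% of all genes) and 3 at least 2-fold lower (23% of all genes). Cdkn1b, which encodes the cell cycle inhibitor p27, was at 47.3 ± 87.4 against 8.18 ± 14.8 CPM, and went with Mki67 at -0.38. The homing gene S1pr1 was at 69.6 ± 121 against 10.001 ± 47.3 CPM. The autophagy gene Map1lc3b was at 640 ± 381 against 334 ± 224 CPM, a 1.92-fold difference, and went with Meis1 at 0.52. In the opposite direction, the insulin receptor gene Insr was at 3.53 ± 6.28 against 22.2 ± 29.5 CPM, and the stress gene Gadd45a at 25.9 ± 60.2 against 53.4 ± 51.6 CPM. Klf2, a quiescence factor of T cells, was at 5.32 ± 12.6 against 57.7 ± 338 CPM, where the SD shows that few cells set the mean. Sod2, the mitochondrial superoxide dismutase, was at 152 ± 134 against 235 ± 126 CPM.

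Relatives and partners of the 8 genes did not share 1 direction. Of 23 such genes, 20 passed the filter, with a median log2 ratio of 0.86. At least 2-fold higher were 8 (21.4% of all genes) and at least 2-fold lower 3 (23% of all genes). Arrdc1, an arrestin-domain relative of Txnip, was at 337 ± 187 against 81.4 ± 102 CPM and went with Meis1 at 0.52. Mxd1, a relative of Mxd4, was at 70.7 ± 154 against 11.6 ± 28.4 CPM, while Mxi1 of the same family was at 2.43 ± 8.06 against 20.4 ± 35.6 CPM. Among their opponents, Mycn was at 190 ± 313 against 26.1 ± 82.4 CPM and Myc at 1007 ± 660 against 565 ± 261 CPM. Sesn2, the sister of Sesn1, was at 5.97 ± 13.9 against 22.6 ± 41.6 CPM, opposite to Sesn1. Tob1, of the same family as Btg1 and Btg2, was at 0.299 ± 0.901 against 8.37 ± 14.7 CPM. It passed the filter through the other cells alone, as did Mxi1, so no direction is read from either. Txn1, the thioredoxin that the Txnip protein inhibits, was at 233 ± 148 against 270 ± 97.6 CPM.

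Other genes linked to stem cell quiescence were higher more often. Of 22, 17 passed the filter, with a median log2 ratio of 1.83. In Meis1-over-Klf1 cells 11 were at least 2-fold higher (21.4% of all genes) and none at least 2-fold lower (23% of all genes). Hlf and Mecom, which also serve as HSC markers here, were at 112 ± 191 against 4.61 ± 14.8 CPM and at 77.8 ± 169 against 2.82 ± 11.5 CPM. Tek, the angiopoietin receptor, was at 167 ± 286 against 12.1 ± 48.6 CPM, and the nuclear receptor Nr4a1 at 760 ± 675 against 255 ± 906 CPM. Junb, a growth-restraining AP-1 factor, was at 561 ± 600 against 315 ± 450 CPM.

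Of the 14 proliferation genes, all passed the filter, 10 were at least 2-fold lower in Meis1-over-Klf1 cells and none at least 2-fold higher, with a median log2 ratio of -3.17. The mitotic genes Plk1 (0.361 ± 0.843 against 136 ± 170 CPM), Ccna2 (1.22 ± 1.98 against 310 ± 225 CPM) and Bub1 (0.263 ± 0.585 against 61.3 ± 68.8 CPM) were near 0 on the Meis1 side. Other mitotic genes were not near 0: Ccnb2 was at 114 ± 233 against 215 ± 201 CPM, under the 2-fold mark, and Ccnb1 at 73.0 ± 122 against 271 ± 246 CPM, both named after their values were seen. Of the replication genes, Mcm7 was at 145 ± 148 against 617 ± 341.5 CPM, and Mcm6 at 530 ± 423 against 793 ± 549 CPM, which is under the 2-fold mark. The shares of all genes given above, 21.4% higher and 23% lower, are the background of these 5 lists as well. Members of the lists were chosen with earlier results of these data known. Some genes had a mean under 5 CPM on 1 side and passed the filter only through the side where they were high. Among those named these were Skp2, Insr, Mxi1, Tob1, Hlf, Mecom, Plk1, Ccna2 and Bub1. They enter the counts of their lists, but nothing is read from their folds.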

How the data were processed

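Full-length Smart-seq2 libraries of 52 single cells were analysed. The authors deposited expected counts (estimated counts per gene) for 28786 Ensembl identifiers, made with Trim Galore 0.5.0 and Salmon 0.03.1 on GRCm38, per the submitters' processing notes; the version numbers are printed as given there. Of the values above 0, 18.3% were not whole. The transcript set, strand setting and earlier filters are not stated there. Counts were rounded to whole reads and divided by the cell's total to give CPM. Symbols (27728 identifiers, 96.3%), coordinates and exon lengths came from GENCODE M21, and promoter windows from RefSeq. The 2 pseudogenes Btg1-ps1 and Btg1-ps2, near copies of Btg1, held 0 reads in kept cells.

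Values after ± are SDs over cells. Shares carry exact Clopper-Pearson 95% intervals. With 1 sample there is no test. Counts of genes past 2-fold, or past a Spearman correlation of 0.3 or -0.3, stand beside the share of all 9155 genes past the same mark. The text names the 8 genes and 3 reference genes. It also names, for each of the 8, the 3 genes of highest and the 1 of lowest correlation. From each of 5 pathway lists it names up to 3 genes of largest fold in each direction and up to 2 more by mean level, and marker lists number 8. A few genes that this rule would name are not reported here. The genes, lists and settings were chosen with earlier results of these data known. Alternatives were cell filters, thinning to 85519 reads (seed 1), size factors, medians, geometric means, Pearson correlation and other filters on genes. Scripts were tested on simulated data. Python 3.11.15, numpy 2.4.6, pandas 2.3.3 and scipy 1.17.1 were used. No doublet caller was run, as 52 cells are too few for one.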

Additional observations from a re-analysis of the deposited data

Results flagged for a closer look

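Cells set aside for depth or mitochondrial share still held reads of the 8 genes. Cell 12, with 32439 reads, held 67 reads of Btg1 (2065 CPM), above the 1622 CPM of the highest kept cell. Cell 10, with 39692 reads, held 5 reads of Btg1 (126 CPM). Cell 5, with 307220 reads and 28.3% mitochondrial reads, held 5 reads of Txnip (16.3 CPM). Each count is above 3 reads, the mark set for this section. As reads copied by PCR are not independent molecules, passing it does not tell how many molecules were present.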

How the results depend on the processing

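No paired analysis was possible because the labels give 1 group. Beside the values reported, 14 other settings were run. Those without Foxo4 and without the highest cell of each gene were chosen after seeing the data, as was running settings on the Mki67 contrast. The division of the other cells by Meis1 level, also added after the values were seen, was not put through other settings. Of the values recomputed, 433 stayed within their tolerance (1 SD over cells for a mean, the exact interval for a share, 0.1 for a correlation, 1.5 times for a ratio or a count) and 62 moved farther without a past-2-fold value changing sign. For means the tolerance was so wide that a fall to 0 would have stayed within it, since each SD was as large as its mean or larger. All 56 recomputed means are among the 433 on that ground, and no stability is read from them. The sign of 7 log2 ratios differed from the reported one, all of Btg1, Foxo4 or Mxd4. Of these, 2 had been past 2-fold and turned in cells with at least 1000000 reads (36 cells, 5 of them Meis1-over-Klf1): the log2 ratio by Mki67 was -0.46 for Btg1 and -0.16 for Mxd4. In that setting 2 genes were at least 2-fold lower on the Meis1 side, since Foxo4 had no read there, against 32.1% of all genes. The mean pair correlation within Meis1-over-Klf1 cells was then 0.109, from -0.0207, and the log2 ratio of Btg1 between the sides -0.58. The count of genes at least 2-fold higher ran from 4 (geometric means, cells with at least 1000000 reads, or without the cells whose title code does not start with Y) to 6 (without cells 9, 13, 23 and 34, where Btg1 was at 1.24). The count by Mki67 ran from 4 to 6. Without the cells of other title codes, Mxd4 was at 0.93 and Btg1 at -0.33. The shares of all genes past 2-fold were 10.9% higher and 46.7% lower with geometric means, and 27.4% and 35.2% over all genes with a read. Size factors from 417 genes moved the median of all genes by 0.204 (26.4% higher, 19.9% lower) and left 5 genes higher and 1 lower. The causes were not tested. No ratio was given where a side had no read (Foxo1 after thinning; Foxo4 by Mki67 and among the deep cells). Depth limits Foxo1 and Foxo4: after thinning, Foxo1 was read in 10 cells (26 before) and Foxo4 in 4 (9 before). The number of cells with a read fell for the rest as well. Foxo3 was then read in 36 cells (47 before), Mxd4 in 24 (37 before) and Btg1 in 34 (42 before). Sesn1 was read in 25 (33 before), Btg2 in 24 (31 before) and Txnip in 45 (47 before).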
